A study of Mus musculus with 19 samples.

Results

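The 7 genes described here are Serpina1a, Serpina1b, Serpina1c, Serpina1d and Serpina1e, the pseudogene Gm8893 that lies among them, and Tc2n, all on mouse chromosome 12 and 7 of the 49671 genes in the deposited table. They were chosen by their normalized counts in these libraries, as genes of the antitrypsin cluster and neighbours that changed between groups, so every value, change and overlap of these 7 genes is a description of that choice and carries no test. The study sequenced RNA of brain homogenate enriched for microglia from 19 mice, 1 library each. The groups were HEM at 13 months (8 mice), WT at 13 months (4 mice), HEM at 3 months (4 mice) and WT at 3 months (3 mice). HEM mice overexpress full-length human wild-type α-synuclein from a transgene on the X chromosome, driven by the murine Thy-1 promoter, which is active mainly in neurons. WT mice are the controls without it. All 4 groups share the background B6D2F1/J, a hybrid of C57BL/6J and DBA/2J, so 2 parental haplotypes can be present at any locus. The labels give no haplotype at this locus, and its part in any value below was not tested.

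Antitrypsin, the product of the Serpina1 genes, is a secreted serine protease inhibitor of the serpin family. It offers proteases a reactive loop as bait and traps them in a covalent complex, and its main target is neutrophil elastase. Hepatocytes make most of it, and in humans monocytes and neutrophils make some. Mice carry several tandem copies where humans have 1 gene, and inbred strains differ in how many copies they have. Tc2n encodes a protein with tandem C2 domains.

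In GENCODE M21 on mm10 all 7 genes lie on the minus strand of chromosome 12. The order along the chromosome is Tc2n (ENSMUSG00000021187, chr12:101645443-101718523), Serpina1b (ENSMUSG00000071178, chr12:103728156-103830373), Serpina1d (ENSMUSG00000071177, chr12:103763594-103773592), Gm8893 (ENSMUSG00000090555, chr12:103817856-103822243), Serpina1a (ENSMUSG00000066366, chr12:103853589-103863562), Serpina1c (ENSMUSG00000079015, chr12:103894926-103904887) and Serpina1e (ENSMUSG00000072849, chr12:103946931-103958975). The annotated span of Serpina1b contains Serpina1d and Gm8893, since 1 of its transcripts starts far upstream of the others. Exons of Serpina1c overlap those of B430119L08Rik over 31.5% of their bases, and those of Tc2n overlap Gm16285 over 5.69%.

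The copies are close in sequence, which bears on every value per copy. Of all stretches of 100 bases in the transcripts of a gene, the share found in no other gene was 85.2% for Serpina1b, 85.6% for Serpina1e, 70.7% for Serpina1d, 57.2% for Serpina1a and 30.7% for Serpina1c, against 96.0% for Tc2n and 76.0% for Gm8893. Serpina1c shared most with Serpina1a, 58.0% of its stretches. For stretches of 50 bases the shares found in no other gene were lower. They were 70.55% for Serpina1b, 65.4% for Serpina1e, 49.1% for Serpina1d, 42.4% for Serpina1a and 20.7% for Serpina1c. Tc2n had 94.6% and Gm8893 41.0%. Neither the read length nor the treatment of reads that fit several copies is given in the sources used here, so the split between copies is uncertain, above all for Serpina1c and Serpina1a, while their sum is less exposed to it.

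The promoters of Serpina1b and Serpina1d are shown because the levels of these copies parted in some libraries. Among the 8 HEM libraries at 13 months, the pair with the most Serpina1d had the least Serpina1b. In the reference genome the promoter sequences of Serpina1b and Serpina1d are nearly the same. The mice have a hybrid background, and their own promoter sequences and copy numbers at this locus were not available. Whether promoter differences play a part in these levels was therefore not tested. Each line is the RefSeq window from 250 bases before to 50 bases after the start (GRCm38.p6, minus strand, chr12:103738140-103738439 for Serpina1b and chr12:103773584-103773883 for Serpina1d). Capitals mark the longest run that is identical in all 5 copies, 59 bases.
Serpina1b: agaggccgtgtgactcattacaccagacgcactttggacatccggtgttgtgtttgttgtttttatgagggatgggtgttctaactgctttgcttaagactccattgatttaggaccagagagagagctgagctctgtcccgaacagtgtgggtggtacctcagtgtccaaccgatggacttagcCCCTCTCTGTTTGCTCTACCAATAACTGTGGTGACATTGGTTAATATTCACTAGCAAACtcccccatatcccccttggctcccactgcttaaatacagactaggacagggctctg
Serpina1d: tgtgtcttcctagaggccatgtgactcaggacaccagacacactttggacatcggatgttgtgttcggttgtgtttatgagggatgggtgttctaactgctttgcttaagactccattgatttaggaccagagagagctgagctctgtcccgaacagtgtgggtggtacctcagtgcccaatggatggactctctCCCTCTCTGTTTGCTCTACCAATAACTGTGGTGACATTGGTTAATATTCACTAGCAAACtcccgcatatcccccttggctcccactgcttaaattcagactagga
The run was present in 5 of 27025 RefSeq promoter windows of this length, 0.0185%, and those were the 5 Serpina1 copies. Its presence in those 5 was given, since it was picked as the longest stretch they share. It begins 65 bases before the RefSeq start in Serpina1b, 55 in Serpina1d, 60 in Serpina1a, 66 in Serpina1c and 117 in Serpina1e. Over the aligned parts of the windows, the 10 pairs of copies were 91.7% to 98.4% identical, with Serpina1b and Serpina1d at 94.1%. RefSeq windows were matched for 6 of the 7 genes, all but Gm8893.

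Values are normalized counts, meaning reads per gene over a single size factor for each library, as deposited. Recovered totals of reads in genes were 63273388 to 95812547 in the 13-month HEM libraries, 93242446 to 124518160.0 in the 13-month WT libraries, 74675517 to 112871955 in the 3-month HEM libraries and 82978462 to 106792176 in the 3-month WT libraries. Libraries are named by the number in their title. HEM replicates 1 and 11 at 13 months and HEM replicate 3 at 3 months stand apart from the rest on principal components of all genes, and a call that is lost when all 3 are left out is given beside its gene. The microglia list of 12 markers was present in full, with summed levels of 445306 to 1286497 normalized counts in 13-month HEM libraries, 658314 to 1129701 in 13-month WT, 704094 to 1192402 in 3-month HEM and 765846 to 1167766 in 3-month WT.

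Serpina1b was the most abundant of the 5 copies and the one with the widest range. It had 460.2, 347, 411, 22.4, 2081, 69.1, 517 and 705 normalized counts in HEM replicates 1, 3, 4, 7, 8, 11, 12 and 13 at 13 months, against 1148, 808, 1030.0 and 1852 in WT replicates 6, 7, 8 and 9 at 13 months. Of these HEM libraries 7 of 8 lay below all 4 WT libraries and replicate 8 lay above them all, with replicates 7 and 11 far below the rest. The 3-month levels were 467, 912, 7.67 and 938 normalized counts in HEM replicates 1, 3, 4 and 7, against 6.34, 1.86 and 3.19 in WT replicates 1, 3 and 5. Those 3 WT libraries held 12 Serpina1b reads in all, and HEM replicate 4 lay next to them while the other 3 HEM libraries had 467 or more. The HEM minus WT log2 difference was -1.90 ± 1.12 (SE) at 13 months and 5.77 ± 1.40 at 3 months, and the difference of 13 minus 3 months was 0.35 ± 1.12 in HEM and 8.02 ± 1.40 in WT.

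Serpina1a followed the same order of groups over a smaller range. It had a lowest, median and highest level of 34.6, 67.2 and 222 normalized counts in 13-month HEM libraries, against 192, 82.1, 139 and 176 in the 13-month WT libraries, with 6 of 8 HEM libraries below all WT libraries. Its 3-month levels were 28.6, 128, 7.67 and 159 normalized counts in HEM libraries, against 8.45, 4.66 and 6.37 in WT libraries. HEM replicate 4 lay within the WT range and the other 3 HEM libraries above it. Log2 differences, HEM minus WT, were -0.99 ± 0.62 at 13 months and 2.71 ± 0.77 at 3 months.

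Serpina1d did not go with Serpina1b in every library. It had 98.1, 18.2, 58.2, 177, 51.7, 123, 52.4 and 19.3 normalized counts in HEM replicates 1, 3, 4, 7, 8, 11, 12 and 13 at 13 months, against 227, 115, 167 and 33.4 in WT replicates 6 to 9. Its highest HEM libraries, replicates 7 and 11, were the lowest for Serpina1b, and its lowest WT library, replicate 9, was the highest for Serpina1b. At 3 months Serpina1d had 27.7, 43.3, 12.3 and 29.4 normalized counts in HEM libraries, against 4.22, 16.8 and 12.7 in WT libraries, so that it was above 0 in all 19 libraries. Log2 differences, HEM minus WT, were -0.92 ± 0.61 at 13 months and 1.30 ± 0.76 at 3 months, and the groups overlapped at both ages.

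Serpina1c and Serpina1e had the lowest mean normalized counts of the 5 copies, though only 30.7% of the 100-base stretches of Serpina1c are its own. Serpina1c was near or at 0 where Serpina1b was low. Serpina1e followed less closely. It had 6.13 in HEM replicate 4 at 3 months, and 5.20 in HEM replicate 3 at 13 months, where Serpina1b had 347. Serpina1c had 16.5, 10.4, 33.8, 2.81, 65.8, 0, 52.4 and 56.6 normalized counts in the 13-month HEM libraries, against 56.7, 60.7, 76.0 and 153 in the 13-month WT libraries. In 3-month mice it had 34, 85.5, 0 and 47.7 normalized counts in HEM libraries and 0 in all 3 WT libraries. The zeros fell in HEM replicate 11 at 13 months, HEM replicate 4 at 3 months and the 3 WT libraries at 3 months. Against a limit of 3 reads over the WT group at 3 months, Serpina1c was at least 45.0-fold higher in HEM at 3 months, and at least 93.2-fold higher in 13-month than in 3-month WT libraries. These limits cover counting error only.

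Serpina1e had a lowest, median and highest level of 1.38, 14.2 and 58.8 normalized counts in 13-month HEM libraries, against 45.5, 26.1, 52.0 and 51.6 in 13-month WT libraries. Its 3-month levels were 10.7, 32.8, 6.13 and 27.4 normalized counts in HEM libraries, against 0, 0 and 1.59 in WT libraries, which held 2 reads in all. All 4 HEM libraries lay above the WT libraries at 3 months. Gm8893, an unprocessed pseudogene of this family, had 10.4 to 68.2 normalized counts in 13-month HEM libraries and 36.1 to 65.8 in 13-month WT libraries. At 3 months it had 12.5, 41.0, 3.07 and 14.2 normalized counts in HEM libraries, against 0, 6.53 and 0 in WT libraries.

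Tc2n lies 2010 kb below the copies and showed another pattern. It had 747, 593, 832, 1404, 1234, 715, 1434 and 825 normalized counts in HEM libraries at 13 months, against 1524, 1968, 2157 and 2259.8 in WT libraries at 13 months. All 8 HEM libraries lay below all 4 WT libraries, HEM replicates 7 and 11 among them, with a log2 difference of -1.08 ± 0.23. At 3 months it had 902, 570.4, 696 and 992 normalized counts in HEM libraries, against 767, 588 and 502 in WT libraries, which overlapped. Thus the 3-month WT libraries, in which the Serpina1 copies were almost unread, still had Tc2n at 619 ± 135 normalized counts (SD, n = 3), and the 13-month WT libraries had 1977 ± 325 (n = 4). Its difference of 13 minus 3 months was 1.68 ± 0.29 in WT and 0.26 ± 0.23 in HEM.

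**Figure D1:**
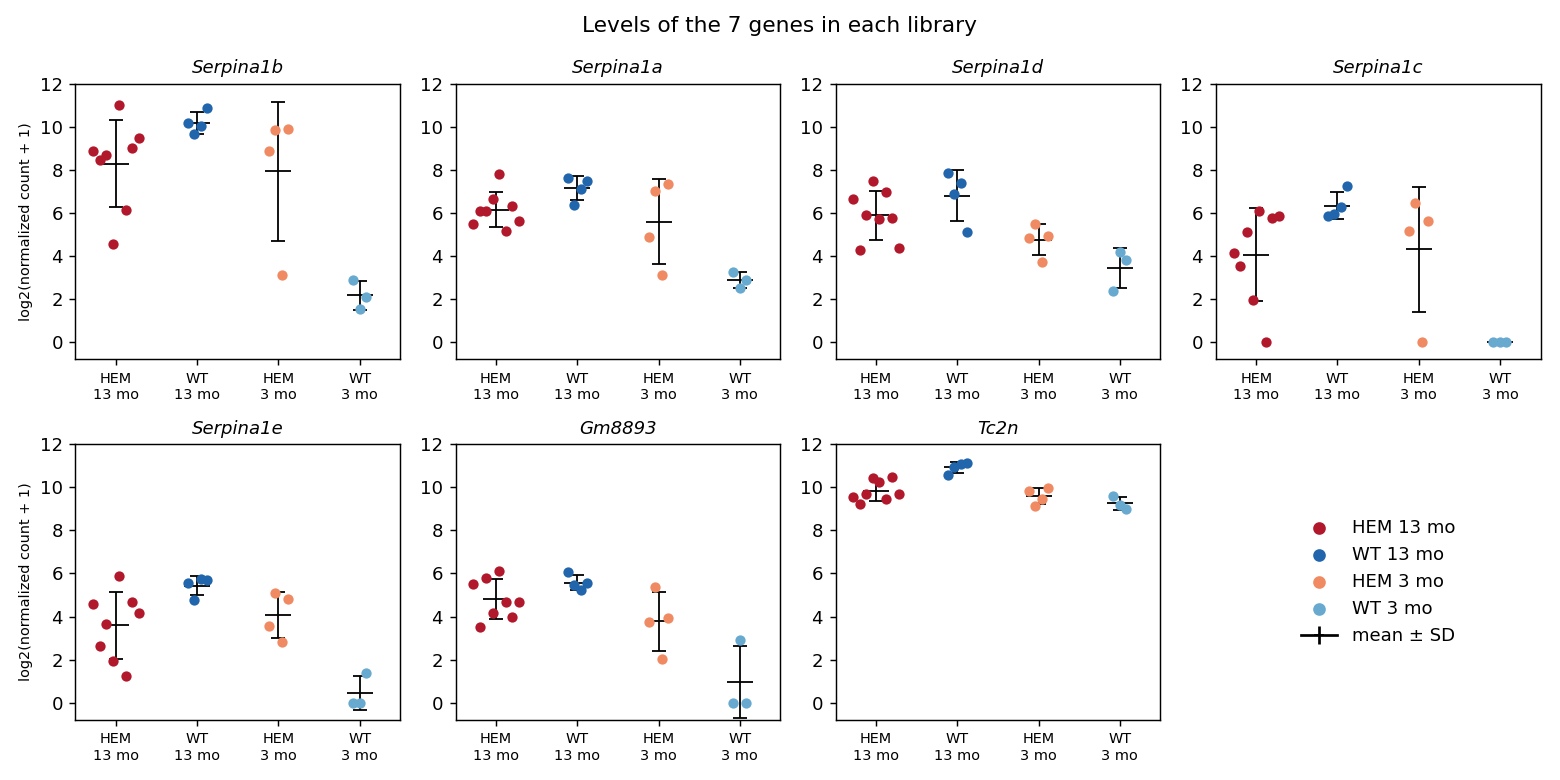
Level of each of the 7 genes on a log2(normalized count + 1) axis, 1 point per library, with mean ± SD bars, for HEM and WT at 13 months and HEM and WT at 3 months. The 3 WT libraries at 3 months lie at or near the bottom of each Serpina1 panel, 1 HEM library at 3 months lies beside them for Serpina1b and Serpina1c, and Tc2n separates the 13-month groups.

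Summed over the 5 copies, the level averaged 781 ± 717 normalized counts in 13-month HEM libraries (SD, n = 8), 1623 ± 491 in 13-month WT libraries (n = 4), 751 ± 564 in 3-month HEM libraries (n = 4) and 22.1 ± 2.67 in 3-month WT libraries (n = 3). The sum ran from 228 to 2479.6 normalized counts over the 13-month HEM libraries and was 1669, 1092, 1464 and 2266 in the 13-month WT libraries. It was 568, 1202, 33.7 and 1202 in the 3-month HEM libraries and 19, 23.3 and 23.9 in the 3-month WT libraries. The log2 difference was -1.38 for HEM minus WT at 13 months and 4.16 at 3 months, so its sign differed between ages. With age, as 13 minus 3 months, the difference of the sum was 0.56 in HEM mice and 6.09 in WT mice. Leaving out HEM replicate 4 at 3 months moved the HEM age difference to -0.63 and the 3-month HEM minus WT difference to 5.35.

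In the order of groups by mean log2 level, 13-month WT came first and 3-month WT last for each of the 5 copies and for Gm8893 and Tc2n. The middle places, 13-month and 3-month HEM, differed by less than the larger SD of the pair for each of the 7 genes, with a gap of 0.35 against an SD of 3.24 for Serpina1b. The step between the 2 highest groups exceeded the larger SD for Serpina1a, Serpina1e and Tc2n and not for Serpina1b, Serpina1c, Serpina1d and Gm8893. The step down to 3-month WT exceeded it for all 5 copies and Gm8893, and not for Tc2n, with a gap of 0.34 against 0.36.

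Between HEM and WT at 13 months, 1 of the 7 genes had groups that did not overlap, Tc2n, lower in HEM, where 6.66% of the 23973 tested genes did not overlap and 3.98% did so in that direction. At 3 months it was 2 of 7, Serpina1b and Serpina1e, both higher in HEM, where the shares were 5.86% and 3.08%. For 13 against 3 months, which was compared after the data had been seen, it was 7 of 7 in WT, all higher at 13 months, where 15.3% of tested genes did not overlap and 8.83% did so in that direction, and 0 of 7 in HEM, set against 2.79%. Among all tested genes the WT age differences of Serpina1b, Serpina1c, Serpina1e, Gm8893 and Serpina1a ranked 1 to 5 from the highest, that of Serpina1d ranked 13 and that of Tc2n 245. At 3 months Serpina1b and Serpina1c ranked 1 and 2 for HEM minus WT. These ranks describe the choice of genes. All 7 genes reached 10 normalized counts in 3 or more libraries, the filter for a tested gene, and 4 were above 0 in all 19 libraries.

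The mix of copies differed between libraries as well as their sum. Serpina1b held 68.8% to 81.7% of the summed reads in the 4 WT libraries at 13 months and the most reads in 6 of 8 HEM libraries there. In HEM replicate 7 at 13 months Serpina1b held 7.41% of 216 reads (95% Clopper-Pearson interval 4.29% to 11.8%), Serpina1d 58.3% (51.5% to 65.0%) and Serpina1a 32.4% (26.2% to 39.1%). In HEM replicate 11 Serpina1b held 30.3% of 165 reads (23.4% to 37.9%) and Serpina1d 53.9% (46.0% to 61.7%). Both intervals for Serpina1b lie below its share in each of the other 17 libraries except those with fewest reads, HEM replicate 4 at 3 months and WT replicates 1, 3 and 5 at 3 months.

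In those last 4 libraries only 44, 18, 25 and 30 reads were summed, and Serpina1b held 22.7% (11.5% to 37.8%) in the HEM library. It held 33.3% (13.3% to 59.0%), 8.0% (0.984% to 26%) and 13.3% (3.76% to 30.7%) in the WT libraries. In the other 3 HEM libraries at 3 months it had the most reads, up to 82.2%. Pooled over a group, Serpina1b held 74.4% of summed reads in 13-month HEM, 73.7% in 13-month WT and 77.4% in 3-month HEM, against 16.4% of 73 reads in 3-month WT, where Serpina1d held 52.1%. The intervals cover counting error only.

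**Figure D2:**
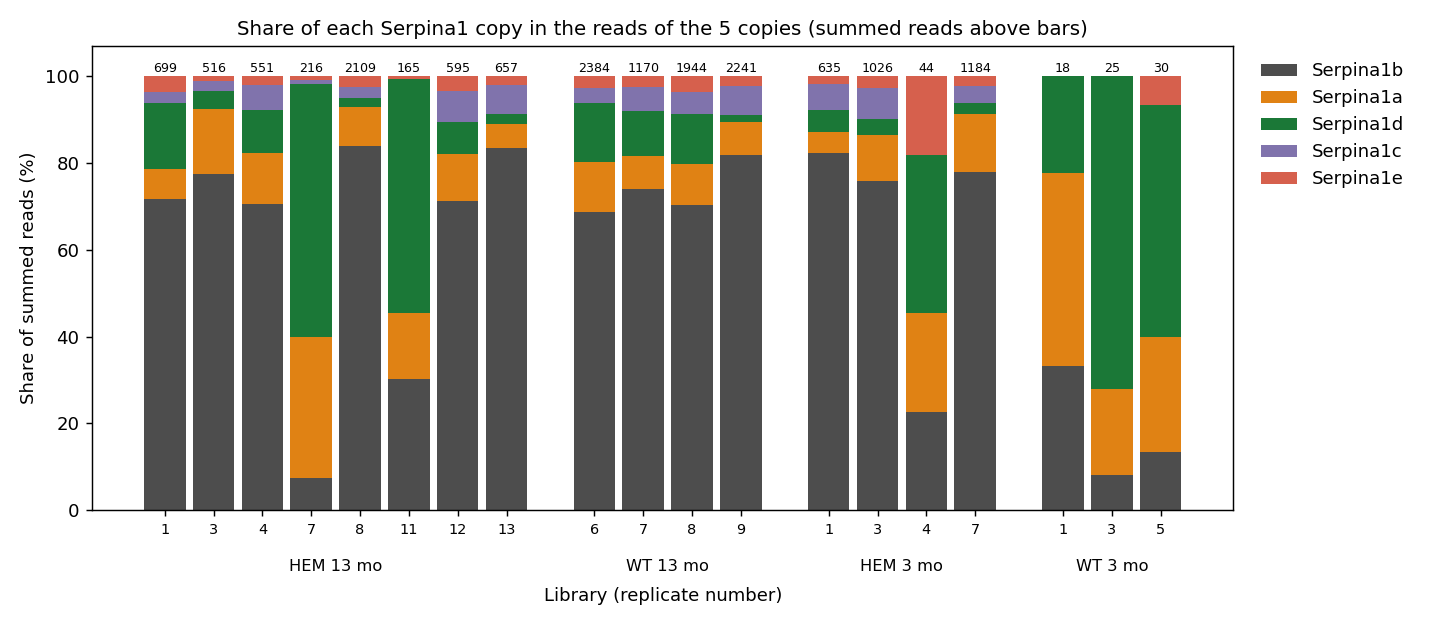
Share of each Serpina1 copy in the summed reads of the 5 copies, in percent, 1 bar per library in the order HEM and WT at 13 months, then HEM and WT at 3 months, with the summed reads above each bar. Serpina1b fills most of the bar in 13 of 19 libraries, and Serpina1d leads in HEM replicates 7 and 11 at 13 months. On few reads, Serpina1d also leads in HEM replicate 4 and WT replicates 3 and 5 at 3 months, and Serpina1a in WT replicate 1.

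**Figure D3:**
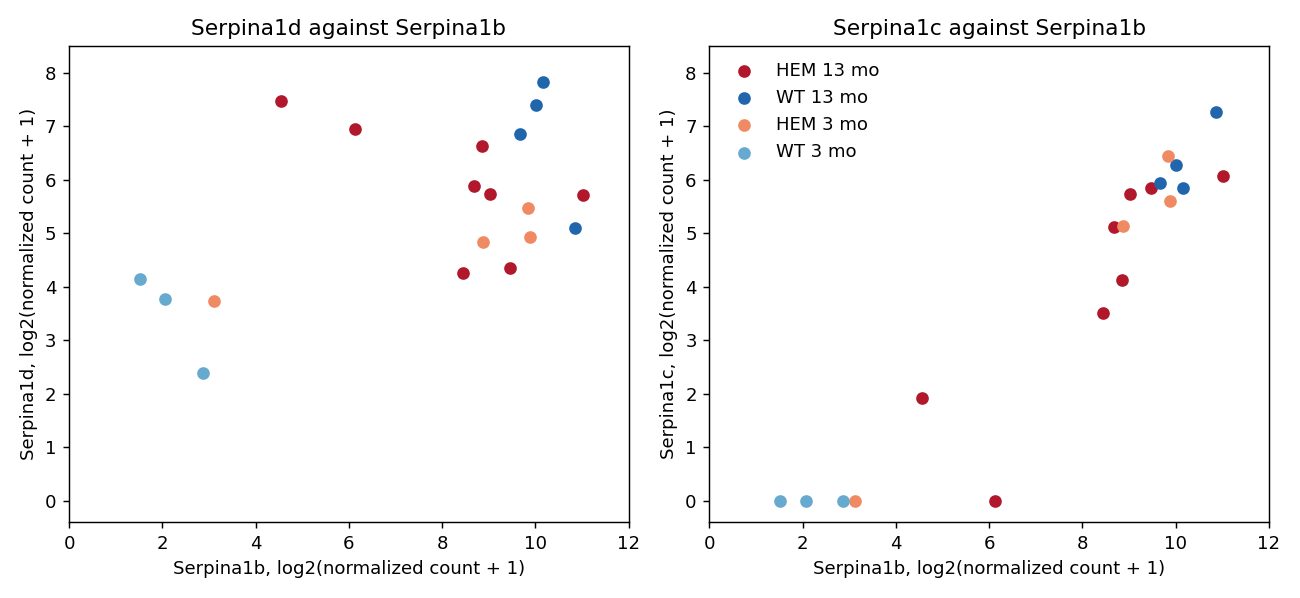
Level of Serpina1d (left) and Serpina1c (right) against that of Serpina1b, log2(normalized count + 1) on both axes, 1 point per library, coloured by group. Serpina1c falls near 0 wherever Serpina1b is low, while Serpina1d reaches its highest HEM levels in the 2 HEM libraries at 13 months with the least Serpina1b.

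Per kilobase of exon, the mean over the 19 libraries was 256.9 normalized counts for Serpina1b, 178.8 for Tc2n, 48.6 for Serpina1d, 45.7 for Serpina1a, 29.1 for Serpina1c, 22.4 for Gm8893 and 12.9 for Serpina1e. In 3-month WT libraries the level per kilobase was 8.07 for Serpina1d, 3.54 for Serpina1a and 1.57 for Serpina1b, against 101.6 for Tc2n. On this scale, Serpina1d was the most abundant copy in that group and Serpina1b in the other 3.

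The other genes around the cluster are those left after the 7 were taken out by their values, Tc2n among them. Counts of called neighbours therefore leave out genes that were chosen as changed. These other genes were tested with limma over all 23973 genes. Of 100 tested genes within 5 Mb of the copies, 6 rose and 6 fell in HEM at 13 months, 12.0%, where 12.2% of all genes were called, 4.87% higher and 7.3% lower. At 3 months 0 of 100 neighbours were called, as were 0 of all genes, with 11 neighbours and 924 genes (3.85%) at an unadjusted p under 0.05; DESeq2 called 6 genes over the whole table. For the difference of the HEM minus WT effect between ages limma called 0 genes, with 3551 (14.8%) at an unadjusted p under 0.05, and DESeq2 called 938. With age, 1 neighbour fell in HEM, where 1.62% of all genes were called and 0.684% fell. In WT 1 neighbour rose, where 0.709% of all genes were called and 0.463% rose. Within 1 Mb, 3 of 34 neighbours were called in HEM against WT at 13 months. At 3 months the groups did not overlap for 10% of neighbours within 5 Mb and 14.7% within 1 Mb, against 5.86% of all genes. For WT age these shares were 19% and 26.5%, against 15.3%. For HEM against WT at 13 months they were 6% and 5.88%, against 6.66%, and with age in HEM 3% and 5.88%, against 2.79%. Of the 34 within 1 Mb, 6 had an unadjusted limma p under 0.05 at 3 months, against 3.85% of all genes. They went both ways. HEM minus WT was 1.81 for Serpina9, 3.80 for Serpina3h and 1.41 for Serpina3n. It was -0.85 for Fam181a, -1.23 for Gm29508 and -2.03 for Gm45777. Of neighbours whose groups did not overlap at 3 months, 3 were higher and 2 lower in HEM within 1 Mb, and 5 and 5 within 5 Mb.

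**Figure D4:**
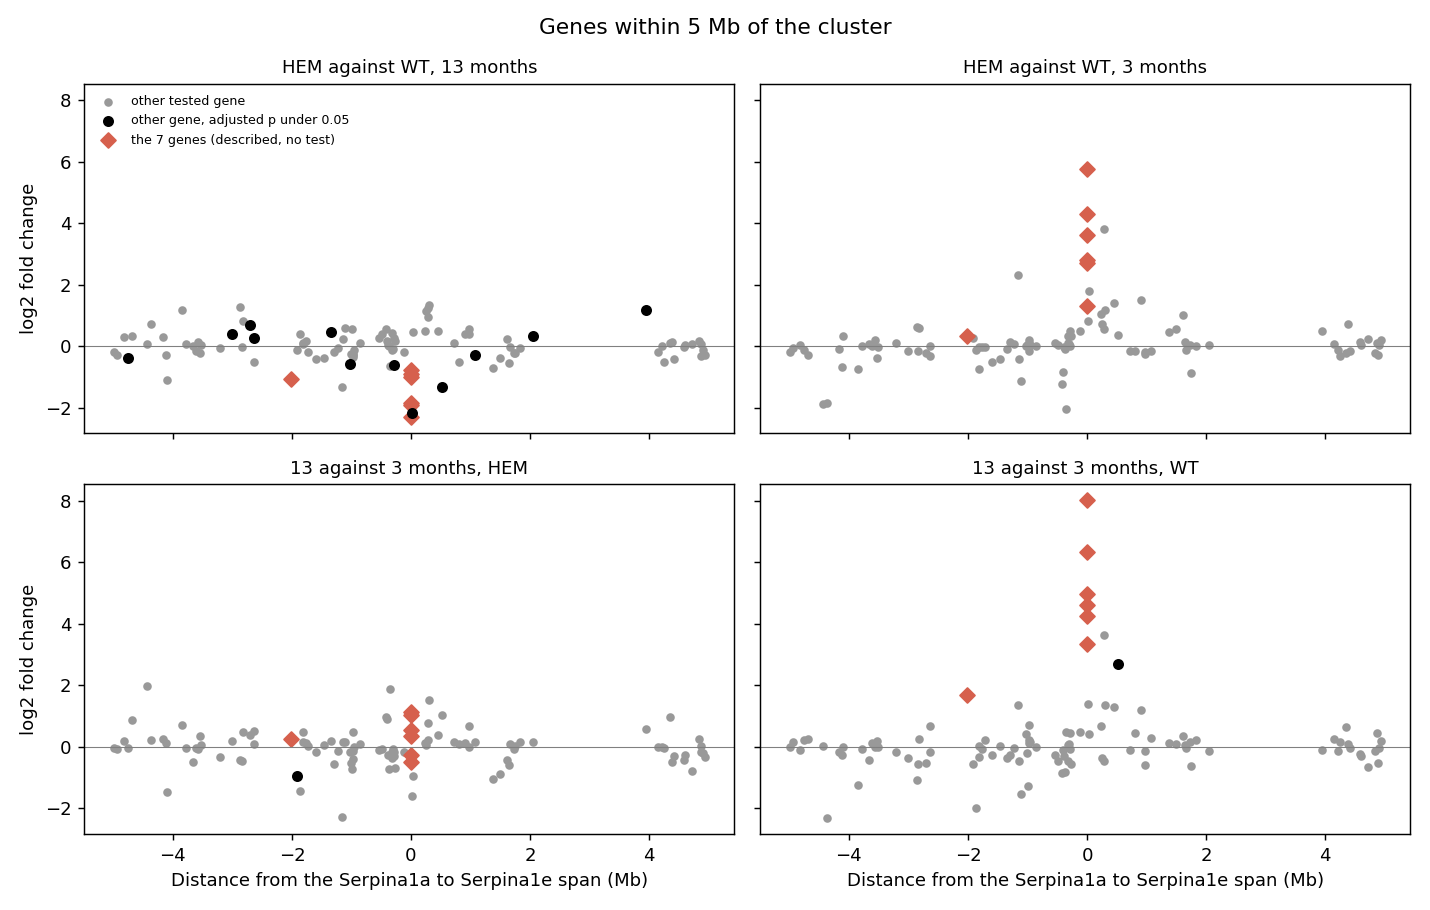
Log2 fold change of each tested gene within 5 Mb against its distance from the Serpina1 copies in Mb, in 4 comparisons, with the 7 genes as diamonds and other genes called at a limma adjusted p under 0.05 in black. The 5 copies lie between 1.30 and 5.77 for HEM against WT at 3 months and between 3.36 and 8.02 for the WT age difference, and no other neighbour was called in either panel except Gsc, with age.

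Of the neighbours called at 13 months, Serpina11 was the nearest, 21.3 kb above the copies. Serpina11, a clade A serpin, fell to 5.40 ± 4.92 normalized counts in HEM (SD, n = 8), against 20.8 ± 4.04 in WT (n = 4), a log2 change of -2.17 ± 0.58 (limma adjusted p = 0.0199), with all 8 HEM libraries below all 4 WT libraries. Gsc, a homeobox transcription factor gene 512 kb above, fell to 153 ± 68.2, against 382 ± 157 in WT, a log2 change of -1.32 ± 0.36 (limma adjusted p = 0.0213). Ifi27, an interferon-induced gene 288 kb below, changed by -0.60 ± 0.11 and Itpk1, an inositol phosphate kinase, by -0.57 ± 0.13 (limma adjusted p = 0.00311 and 0.00831).

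Bcl11b, a T cell and neuron transcription factor, changed by 1.18 ± 0.37, Ccdc88c by 0.69 ± 0.18, Rin3, a Rab5 exchange factor, by 0.48 ± 0.14 and Rps6ka5, a kinase, by 0.40 ± 0.13, all higher in HEM (limma adjusted p = 0.0444, 0.0176, 0.0348 and 0.0477). Ifi27 and Itpk1 kept their calls whichever library was left out. Ccdc88c lost its call without WT replicate 9 (limma adjusted p = 0.0851), Serpina11 without WT replicate 7 or 9 (0.0619 and 0.0685) and Gsc without WT replicate 7, 8 or 9 (0.0867, 0.0611 and 0.096), while Rin3, Bcl11b and Rps6ka5 lost theirs in 9, 11 and 15 of 19 such fits (up to 0.107, 0.125 and 0.231). With the 3 libraries that stand apart left out together, Gsc, Rin3, Bcl11b and Rps6ka5 were not called (limma adjusted p = 0.0628, 0.0562, 0.063 and 0.0854). Rin3, Bcl11b and Rps6ka5 also lost their calls with no filter on low values (limma adjusted p = 0.0527, 0.0724 and 0.0916). A fit of the 13-month groups alone ended the calls of Serpina11 and Rps6ka5 (limma adjusted p = 0.0524 and 0.0779), and edgeR did not call Rps6ka5 with RLE or TMM factors (adjusted p = 0.0646 and 0.0645). With a covariate for neutrophil and erythroid markers none of the 100 neighbours, and none of the 23973 genes, was called at 13 months.

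With age, Gsc was the only called neighbour in WT. Gsc rose to 168, 468, 364 and 526 normalized counts in 13-month WT libraries, against 61.2, 44.8 and 53.4 in 3-month WT libraries, a log2 change of 2.71 ± 0.45 (limma adjusted p = 0.0208). The call was lost without WT replicate 7 or 9 at 13 months or any of the 3 WT libraries at 3 months, with limma adjusted p up to 0.16. Fbln5, an elastic fibre protein gene 1909 kb below, was the neighbour called in HEM and fell to 2201 ± 621 normalized counts at 13 months, against 4178 ± 774 at 3 months, a log2 change of -0.95 ± 0.20 (limma adjusted p = 0.0208). That call was lost without HEM replicate 1, 4 or 7 at 3 months, with limma adjusted p up to 0.0827.

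Of the 5 nearest tested genes on either side, only Ifi27 and Serpina11 were called at 13 months. Below the copies, the log2 differences of HEM minus WT at 13 months were -0.10 for Ddx24, 0.27 for Ifi27l2a, 0.18 for Ifi27l2b and -0.19 for Ppp4r4. Above them they were 0.46 for Serpina9, 0.49 for Serpina3e-ps, 1.15 for Serpina3f and 1.24 for Serpina3g, the last with a limma adjusted p of 0.0519. Ppp4r4, the nearest tested gene below the copies, had 355 to 565 normalized counts in 3-month HEM libraries and 274 to 391 in 3-month WT libraries.

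Serpina3h, a paralog of the antichymotrypsin group 289 kb above the copies, came closest to the copies among the serpins outside the 7. It had 193, 27.7, 239, 1.40, 179, 34.6, 99.9 and 947 normalized counts in 13-month HEM libraries, against 2.80, 111, 163 and 45.5 in 13-month WT libraries. At 3 months it had 129, 240.1, 2.30 and 46.7 normalized counts in HEM libraries, against 4.22, 1.86 and 1.59 in WT libraries. Its 6 lowest libraries were the 3 WT libraries at 3 months, HEM replicate 4 at 3 months, HEM replicate 7 at 13 months and WT replicate 6 at 13 months, and 5 of these 6, all but the last, were the 5 lowest for Serpina1b. WT replicate 6 had 1148 Serpina1b normalized counts, so the sets were not identical. No comparison of Serpina3h was called, with a limma adjusted p of 1 for HEM minus WT at 3 months at a log2 difference of 3.80 ± 1.68, and of 0.303 for WT age at 3.65 ± 1.68. Of its stretches of 100 bases 96.4% occur in no other gene.

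**Figure D5:**
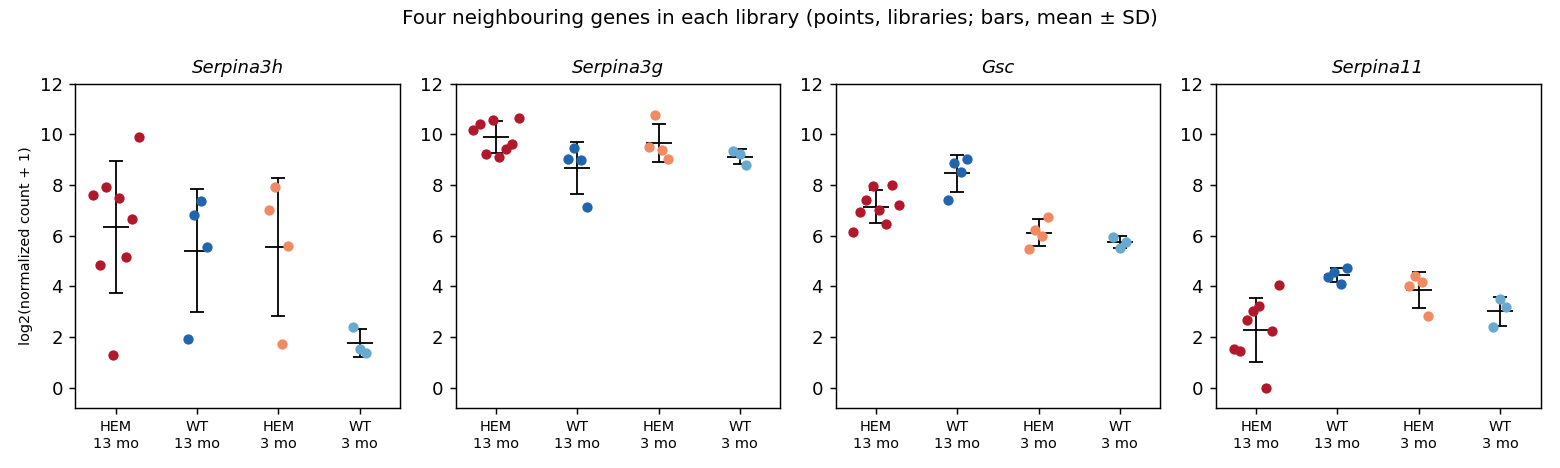
Levels of Serpina3h, Serpina3g, Gsc and Serpina11 on a log2(normalized count + 1) axis, 1 point per library with mean ± SD bars, for HEM and WT at 13 months and HEM and WT at 3 months. Serpina3h spreads between 1.40 and 947 normalized counts in 13-month HEM libraries, and Serpina3g has no library near 0.

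Of the 21 other clade A serpins, the family of antitrypsin, 7 passed the filter on low values. Of those 7, 1 fell in HEM at 13 months (Serpina11) and 0 rose, against 12.2% of all genes called, and 0 were called in the 3-month or either age comparison. The clade A median log2 difference was 0.94 at 13 months, against 0.03 over all tested genes, and 1.19 at 3 months, against 0.01. Serpina3n, the reactive astrocyte serpin, had 1157 ± 1114 normalized counts in 13-month HEM libraries (SD, n = 8) and 629 ± 108 in 13-month WT libraries (n = 4), a difference of 0.49 that was not called. At 3 months it had 391 to 1933 in HEM and 224 to 291 in WT libraries, which do not overlap. Serpina9 did not overlap there either, at 32.5 to 134.7 in HEM and 9.32 to 25.3 in WT, while the others of this list overlapped. With age in WT, Serpina3n and Serpina11 did not overlap and were higher at 13 months. Of all tested genes 3.08% did not overlap and were higher in HEM at 3 months, and 8.83% were so with age in WT. Among serpins of other clades 18 of 21 passed the filter, and 4 rose and 2 fell in HEM at 13 months, where 4.87% of all genes rose and 7.3% fell, with 0 called at 3 months.

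The proteases that antitrypsin inhibits are led by those of neutrophil granules. Of 9 tested target proteases 3 rose in HEM at 13 months, where 4.87% of all genes rose, and they were Elane, neutrophil elastase, Prtn3, proteinase 3, and Ctsg, cathepsin G. Elane had 7016 normalized counts on average in HEM, against 431 in WT (log2 3.57 ± 0.75, limma adjusted p = 0.00523), while Ctsg changed by 3.28 and Prtn3 by 2.98 (limma adjusted p = 0.00482 and 0.0125). Prtn3 lost its call without WT replicate 9 (limma adjusted p = 0.0633). All 3 also stand in the neutrophil marker list, of which 14 of 14 rose in HEM at 13 months, with summed levels of 72169 to 626378 normalized counts in HEM libraries and 44251 to 118905 in WT libraries. None of the 9 was called in the other comparisons.

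Of 14 tested regulators of Serpina1 transcription and its acute phase signal, 2 rose in HEM at 13 months and 0 fell, close to the 12.2% of all genes that were called. Osm, the cytokine oncostatin M, had 3758 normalized counts in HEM, against 898 in WT (log2 1.95, limma adjusted p = 0.00229), and Cebpb, an acute phase transcription factor, changed by 1.10 (limma adjusted p = 0.0324). Cebpb lost its call without HEM replicate 4 or 11 or any 1 WT library at 13 months, with limma adjusted p up to 0.0998. It was also lost without the 3 libraries that stand apart (limma adjusted p = 0.0816) and with no filter on low values (0.0661). Hnf4a, a liver transcription factor, had no more than 29.6 normalized counts in any library. None of the 14 was called at 3 months or with age.

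Of 16 tested genes of antitrypsin folding and secretion, 0 rose and 1 fell in HEM at 13 months, close to the 7.3% of all genes that fell, and that was Os9, a lectin that sorts misfolded glycoproteins, with a log2 change of -0.24 (limma adjusted p = 0.0385). Os9 lost its call in 9 of 19 fits with 1 library left out, with limma adjusted p up to 0.115, without the 3 libraries that stand apart (0.0556) and in a fit of the 13-month groups alone (0.0834). Of 8 tested uptake receptors and partners, 1 fell in HEM at 13 months, again against 7.3% of all genes, and that was Lrpap1, the chaperone of LRP1, with a log2 change of -0.43 (limma adjusted p = 0.00245). With age in HEM, 2 of these 8 fell, where 0.684% of all genes fell. They were Lrpap1 and Scarb1, a scavenger receptor (limma adjusted p = 0.0192 and 0.0298). Lrpap1 lost that call without HEM replicate 1 or 7 at 3 months (up to 0.0745) and Scarb1 without HEM replicate 13 at 13 months or any of the 4 HEM libraries at 3 months (up to 0.098). Scarb1 was not called either without the 3 libraries that stand apart (limma adjusted p = 0.104) or in a fit of the HEM groups alone (0.0605). Both lists had 0 called in the other comparisons.

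Since antitrypsin is a liver product, 20 hepatocyte markers were listed. Of these 15 were tested, and 1 rose (Hp) and 2 fell (Ttr and Tat) in HEM at 13 months, where 4.87% of all genes rose and 7.3% fell, with 0 called in the other comparisons. Ttr is also the leading choroid plexus transcript, and without it the summed level of the list was 6262 to 18777 normalized counts in 13-month HEM libraries, 5146 to 8734 in 13-month WT, 4452 to 8941 in 3-month HEM and 6786 to 10295 in 3-month WT. Almost all of that sum was Hp, haptoglobin, which neutrophils also make, and Trf, transferrin, which oligodendrocytes and choroid plexus also make. The other 17 hepatocyte markers together had 425 to 832 normalized counts in 13-month HEM libraries, 525 to 826 in 13-month WT, 329 to 711 in 3-month HEM and 500.0 to 624 in 3-month WT, which overlap. Alb, albumin, did not exceed 100.9 normalized counts in any library, and Fga and Fgb, 2 fibrinogen chains, were each at 0 in 17 of 19 libraries.

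Other cell types moved with the groups. Of 10 choroid plexus markers 9 fell in HEM at 13 months, where 7.3% of all genes fell. Their summed levels were 727259 to 1347517 normalized counts in HEM libraries and 1673327 to 2083370.0 in WT libraries, which do not overlap, in the same direction as Tc2n. At 3 months the choroid plexus sum was 995971 to 1962845 in HEM and 1005121 to 1617970.0 in WT, and 0 of 10 were called there. Of 8 monocyte markers 5 rose, and of 7 erythroid markers 2 rose in HEM at 13 months, where 4.87% of all genes rose. There 0 of 12 microglia and 0 of 11 neuronal markers were called, against 12.2% of all genes. At 3 months, where the copies were higher in HEM, summed neuronal markers had 53749 to 130850.0 normalized counts in HEM libraries and 19481 to 44482 in WT libraries, which do not overlap, with a median log2 difference of 1.10 over the 11 markers and 0 called. With age in WT, where the 7 genes were higher at 13 months, the choroid plexus sum was 1673327 to 2083370.0 at 13 months and 1005121 to 1617970.0 at 3 months, which do not overlap. The monocyte sum was lower, 39459 to 50229 at 13 months and 59788 to 97498 at 3 months in WT, and these do not overlap either. None of the markers of these lists was called with age in WT, where 0.709% of all genes were called. With age in HEM 1 erythroid marker rose and 1 choroid plexus marker fell, where 1.62% of all genes were called. In bulk RNA, fewer cells of a type and less RNA per cell cannot be told apart. The part of these cell types in the values of the 7 genes was not tested.

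The tested genes outside the 7 whose log2 level was most like the summed level of the 5 copies over the 19 libraries were Pcdhb22 (Pearson r = 0.76), Gm43154 (0.749), Gm12231 (0.747), Gm43506 (0.747), Zfp977 (0.728), Gm12892 (0.724), Gm8894 (0.723), Gm6741 (0.714), ENSMUSG00000062783 (0.701) and Ighg3 (0.7). They are described without a test, over libraries that share groups. Within the 8 HEM libraries at 13 months alone, their r ran from -0.395 (ENSMUSG00000062783) to 0.599 (Gm8894), with 0.026 for Gm43154. Those at the other end were Hnrnpl (-0.75), Mfsd4b3 (-0.722), Smim6 (-0.719), Trim41 (-0.716) and Rpain (-0.711). Within the 13-month HEM libraries Hnrnpl had 0.025 and the others of this end -0.49 to -0.27. Pcdhb22 had 839 ± 159 normalized counts in 13-month HEM, 1129.6 ± 87.2 in 13-month WT, 829 ± 163 in 3-month HEM and 625 ± 129 in 3-month WT, a far narrower range than the copies. Gm43506 was at 0 in all 3 WT libraries at 3 months, as Serpina1c was, and averaged 16.0 ± 15.2 normalized counts in 13-month HEM, 10.2 ± 6.57 in 13-month WT and 11.2 ± 7.62 in 3-month HEM. Of the 7 genes, r with that sum was 0.97 for Serpina1b and 0.62 for Serpina1d, which are part of it, and 0.88 for Gm8893 and 0.62 for Tc2n, which are not. Gm8893 shares 17.9% of its 100-base stretches with Serpina1a, so its reads may not be fully separate from those of the sum. Serpina3h had r = 0.686, and 16 tested genes, the copies included, had a higher one.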

How the data were processed

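RNA-seq of microglia-enriched brain homogenate was measured in 19 mice. The submitters' processing notes name Trimmomatic, HISAT2, featureCounts, DESeq2 and the build mm10, while versions, annotation, strand setting and treatment of multiply mapped reads are not given in the sources used here. The deposited unit is a normalized signal: reads per gene over a single size factor for each library, as judged from the values themselves, since 100% of them were whole multiples of what 1 read is worth (tolerance 0.01). The 19 columns of the joint table matched the 19 separate library files 1 to 1. Reads recovered this way gave depths, shares and the alternative count tests.

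Genes that reached 10 normalized counts in 3 or more libraries (23973) entered limma-trend, robust (limma 3.58.1, R 4.3.3), on log2(value + 1), with the 4 groups in 1 model and no covariate. P-values were two-sided, Benjamini-Hochberg adjusted over all tested genes, and called under 0.05. Fold changes on that scale understate the change of low genes. A log2 value ± error is a difference ± SE of this fit, and a level ± error is a mean ± SD. The fit was checked on simulated counts with known changes, of which it called a part.

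The 7 genes, gene lists, markers and tests were chosen with earlier results of these data known. Named beside the 7 were the called genes of each list (of the lists of other serpins and markers, counts only, apart from a few chosen after their values were seen, among them Serpina3h, Serpina3n, Hnf4a, Ttr, Tat, Hp, Alb, Fga and Fgb), the 5 nearest tested genes on each side, the 8 neighbours within 5 Mb with the largest called change at 13 months, those called with age, and the 10 most and 5 least alike genes by Pearson r. Comparisons of 13 with 3 months were added after the data were seen. Symbols, positions and exon lengths came from GENCODE M21 (99.3% of IDs had a symbol) and promoters from RefSeq (GRCm38.p6). Shares carry Clopper-Pearson intervals. Alternatives were pseudocounts of 0.5 and 10, TMM scaling, other filters, edgeR 4.0.16, DESeq2 1.42.0, a marker covariate, the animal number as a block, each library left out, windows of 1 and 10 Mb, and Gm8893 added to the sum. A few genes are not reported here.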

Additional observations from a re-analysis of the deposited data

Results flagged for a closer look

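Serpina1b in HEM replicate 4 at 3 months, with 7.67 normalized counts, lay far from the other 3 HEM libraries of its age, with 467, 912 and 938. On the log2(normalized count + 1) scale its gap to the nearest of them was 0.851 of the range of the group, above Dixon's 95% critical value for 4 libraries, but on the scale of normalized counts it was 0.49, below that value. As the gene was chosen by its values in these libraries, this is a description and not a test. This was 1 of 24 groups of 4 to 10 libraries looked at on the log2 scale over the 7 genes and their sum, and chance alone flags about 1 group in 20. In the same library Serpina1c was at 0 and Serpina3h at 2.30 normalized counts, while Tc2n, at 696, lay within its group.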

How the results depend on the processing

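The log2 difference of the summed level of the 5 copies kept its sign under every alternative run for HEM minus WT at both ages and for WT age. Its size did not hold as well. At 13 months 2 alternatives moved it by at least the larger group SD, and a replicate block, given below, left almost no difference. With 1 library left out, the difference ranged from -1.67 to -1.18 at 13 months, 3.65 to 5.35 at 3 months, -0.63 to 1.07 with age in HEM and 5.92 to 6.27 with age in WT. With the neutrophil and erythroid covariate it was -2.91 at 13 months and 7.09 with age in WT, and with a pseudocount of 10 the WT age value was 5.62. The signs of all 7 genes held under the 31 alternatives for WT age, and those of 6 of 7 for HEM minus WT at each age, the exceptions being Serpina1a at 13 months (up to 0.77) and Tc2n at 3 months (down to -0.02); for HEM age 3 of 7 held.

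Whether numbers shared between groups pair the mice is not settled. At 13 months libraries with the same number had correlations of 0.107 (number 7) and 0.126 (number 8), against 0.0729 and 0.163 for the best with another number. At 3 months these were 0.0211 (number 1) and -0.0381 (number 3), against 0.0232 and 0.0489. So few values cannot decide it. With the number as a replicate block, the summed difference was -0.073 at 13 months and 5.15 with age in WT. At 13 months HEM and WT share only the numbers 7 and 8. The block left 0 genes and 0 neighbours called at 13 months, 1 gene and 0 neighbours with age in HEM, and 0 and 0 with age in WT.

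The covariate left 0 genes and 0 neighbours called at 13 months, 0 and 0 with age in HEM, and 4 and 0 with age in WT. Prtn3 had a log2 change of -0.47 under it at 13 months. As Prtn3, Elane and Ctsg are among the markers averaged in the covariate, a loss of their change under it was built in. DESeq2 called 19 neighbours at 13 months, 5 with age in HEM and 5 in WT, and of all genes 6 at 3 months, 938 for the difference of the genotype effects (0 with limma, and 3551 at an unadjusted p under 0.05), 1302 with age in HEM and 1219 in WT. For WT age, edgeR called 93 genes with RLE and 103 with TMM factors, the filter at 50 gave 292, no low filter 79 and the 2 compared groups alone 77 genes and 2 neighbours, while for HEM age the compared groups alone gave 231. Neighbours called at 13 months numbered 5 with no low filter, 3 within 1 Mb and 27 within 10 Mb, and with age 0 (1 Mb) and 2 (10 Mb) in HEM and 2 (10 Mb) in WT. Without the 3 libraries that stand apart, 5 neighbours were called at 13 months, 1 gene for the difference, 203 with age in HEM and 256 in WT.

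With 1 library left out, genes called ran from 1707 to 3287 at 13 months, 0 to 0 at 3 months, 0 to 313 for the difference, 62 to 648 for HEM age and 0 to 523 for WT age. At 13 months the lowest counts came without WT replicates 7, 8 and 9 (1733, 1831 and 1707). The highest for the difference came without HEM replicate 7 (313) and WT replicate 6 (280) at 13 months. For WT age 4 or fewer genes were called without WT replicates 7 (0) or 9 (4) at 13 months or without WT replicates 1, 3 or 5 (0, 1 and 0) at 3 months, and for HEM age the fewest were called without HEM replicates 1, 4 and 7 at 3 months (62, 118 and 163). Neighbours called ran from 3 to 13 at 13 months, where the count fell by over 1.5 times without HEM replicates 1, 11 or 13 (7 each) or WT replicates 7, 8 or 9 (6, 5 and 3), from 0 to 0 at 3 months and from 0 to 2 for either age comparison. The causes were not tested. Shares of copies rest on 18 to 44 reads in the 3-month WT libraries and HEM replicate 4, which limits them to wide intervals, and near-identical copies limit the split between them in every library.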
